A study of Mus musculus with 23 samples.

Results

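Hepatokines are proteins that the liver secretes and that act on other tissues. Transcripts of 10 of them were examined here, of 26522 genes listed for the livers of this study: Fgf21, Gdf15, Tsku, Igfbp1, Igfbp2, Ahsg, Fetub, Lect2, Inhbe and Selenop. The genes were chosen by name, partly from the measured values themselves, because Fgf21 moved in opposite directions in the 2 sexes and Tsku was higher in LKO livers. Their differences between LKO and control livers are therefore described by values and standard errors (SE). These SE were derived from the F statistic of the fit and are not read as a test of the members. The calls that the fits over all genes made among them are printed once, as counts, and support nothing here. The comparison of the sexes averaged over genotypes, and that of livers within a group, did not enter the choice, and these were tested.

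The study sequenced 23 livers, of which 11 were from males (5 controls and 6 LKO) and 12 from females (6 of each genotype). LKO denotes the ablation of Cpt1a in the liver, which encodes the carnitine palmitoyltransferase of liver mitochondria and so controls the entry of long-chain fatty acids into mitochondria for oxidation. Controls and LKO animals alike were on the background labelled B100, received a diet labelled WD for 16 weeks and were killed in the fed state. The labels do not name the Cre driver, the ages of the mice or the composition of the diet. Polyadenylated RNA of whole liver was sequenced to 14224665 to 19626662 counts per liver, and each animal is 1 sample. The p-values for group differences set a difference against the variation between these samples. The control males are replicates 1, 2, 3, 4 and 6.

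FGF21 is a hormone that signals through FGF receptors together with the co-receptor beta-klotho, and liver cells make it in response to fasting, protein shortage and stress of the endoplasmic reticulum or the mitochondria. GDF15 is a stress-induced cytokine that lowers food intake through the receptor GFRAL in the hindbrain. Tsukushi, from Tsku, is a small secreted protein with leucine-rich repeats. IGFBP1 and IGFBP2 bind insulin-like growth factors, and insulin represses Igfbp1. The fetuins encoded by Ahsg and Fetub belong to the cystatin superfamily and circulate in plasma, LECT2 is a secreted chemotactic factor, Inhbe encodes the subunit of activin E, and selenoprotein P from Selenop carries selenium from the liver to other organs.

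The promoters of 3 members are shown because they hold elements of the stress or insulin response. In the RefSeq promoters of GRCm38.p6, all 10 members had at least 1 entry, 16 promoters in all, and the 250 bases before each start were searched. The Fgf21 promoter (chr7:45615491-45615740, minus strand) and the Inhbe promoter (chr10:127351849-127352098, minus strand) both hold TGATGCAA, the element to which ATF4 binds together with C/EBP partners, on the reverse strand as TTGCATCA. The Igfbp1 promoter (chr11:7197537-7197786, plus strand) holds CAAAACA, known there as an insulin response sequence bound by FOXO proteins. Capitals mark these elements, and each sequence runs 5′ to 3′ towards the start.
Fgf21: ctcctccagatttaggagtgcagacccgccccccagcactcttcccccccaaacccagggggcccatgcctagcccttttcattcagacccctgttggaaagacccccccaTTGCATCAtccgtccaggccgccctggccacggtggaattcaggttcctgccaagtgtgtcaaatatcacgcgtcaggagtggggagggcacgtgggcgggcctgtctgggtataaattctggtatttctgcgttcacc
Inhbe: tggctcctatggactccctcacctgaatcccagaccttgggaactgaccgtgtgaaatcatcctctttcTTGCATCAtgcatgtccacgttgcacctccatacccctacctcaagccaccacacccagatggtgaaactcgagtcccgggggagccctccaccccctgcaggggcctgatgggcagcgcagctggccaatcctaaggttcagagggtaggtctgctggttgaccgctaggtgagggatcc
Igfbp1: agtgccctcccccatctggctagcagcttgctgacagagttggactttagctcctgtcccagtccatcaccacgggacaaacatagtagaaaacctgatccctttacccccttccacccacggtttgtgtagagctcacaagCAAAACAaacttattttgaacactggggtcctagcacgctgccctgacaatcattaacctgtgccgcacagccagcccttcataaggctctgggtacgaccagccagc

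The element began 139 bases before the start in Fgf21 and 181 bases before it in Inhbe. Of 32851 RefSeq promoters, 0.791% held TGATGCAA on either strand, and no other member did. CAAAACA lay 108 bases before the Igfbp1 start and was present in 5.56% of promoters. The E-box CACGTG was found in Fgf21, Gdf15 and Igfbp2, against 6.02% of promoters. The motifs were listed after the promoters had been looked at, 17 in all, each searched on both strands. Members also held TGATGNAA (Fgf21 and Inhbe, at the same bases as TGATGCAA, 3.45% of promoters), TTGCAT (the same bases again, 9.45%), ATTGCAT (Fgf21, overlapping them, 1.76%), TGTTTAC (Fetub and Selenop, 3.17%), GTTAAT (Gdf15, Igfbp1 and Lect2, 6.43%) and GCGTGGG (Ahsg and Fetub, 4.30%). Further matches were GCGGGGG in Tsku and Igfbp2 (9.63%), AGGTCA in Gdf15 (14%), TGANTCA (6.75%) and CAAAGTCC (1.20%) in Igfbp2, TATAAA in Fgf21, Fetub and Selenop (12.4%) and CCAAT in Gdf15, Fetub and Inhbe (33.8%). TGACGTCA (1.55%) and TGACGT (6.47%) were in no member's window. A match describes letters in a window and not an occupied site.

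Levels of different genes were compared as FPKM, which divides by gene length and was scaled by the authors within each sex. Ahsg had the highest median in each of the 4 groups, from 2122 FPKM in LKO males to 4821 FPKM in control females, followed by Selenop with 1026 to 1559 FPKM. Igfbp1 and Igfbp2 came next, in an order that changed between groups with overlapping ranges. Fetub, Gdf15 and Lect2 lay below them at medians of 104 to 275 FPKM. Tsku, Inhbe and Fgf21 were the 3 lowest members in every group, and Fgf21 ranged from a median of 5.86 FPKM in control females to 15.1 FPKM in LKO females. The ranges of Ahsg and Selenop did not overlap in any group, whereas Inhbe and Fgf21 overlapped in all 4.

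The ablated gene was examined first. Cpt1a averaged 357 ± 50.4 CPM (SD, n = 5) in control males against 63.1 ± 20.3 CPM (SD, n = 6) after ablation, a level of 17.7%. Control females averaged 388 ± 59.2 CPM (SD, n = 6) against 75.9 ± 8.88 CPM (SD, n = 6), a level of 19.6%. CPM are counts scaled to a common library total with TMM factors over all 23 livers. The groups did not overlap in either sex, and the edgeR quasi-likelihood test with Benjamini-Hochberg adjustment called the decrease in males (log2 difference -2.50, SE 0.19, adjusted p = 9.97e-05) and in females (-2.35, SE 0.12, adjusted p = 3.69e-08). Hepatocyte markers summed to 52465 to 98857 CPM per liver, and macrophage markers to 302 to 1017 CPM. In 1 LKO female the summed B cell markers reached 482 CPM, against a median of 27.9 CPM in that group. In whole liver, fewer cells of a type and less RNA per cell cannot be told apart.

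Fgf21 (ENSMUSG00000030827; chromosome 7, 45263310 to 45264914, minus strand, in the coordinates of the deposited tables) had, among the 10 members, the widest gap between its male and female LKO differences. In control males it was at 18.6, 12.9, 38.4, 4.98 and 14 CPM, in replicate order. In LKO males the values were 7.96 CPM at the lowest, 10.1 at the median and 12.9 at the highest, all inside the range of the controls. The 2 male groups thus overlapped, and the LKO livers were far more alike (SD 1.82 CPM) than the controls (SD 12.5 CPM). In control females Fgf21 was at 1.81 CPM at the lowest, 5.65 at the median and 9.28 at the highest. In LKO females the lowest value was 6.22, the median 14.5 and the highest 64.7 CPM, and 4 of the 6 livers lay above every control female. The log2 difference of LKO from control was -0.80 (SE 0.36) in males and 1.91 (SE 0.53) in females, with all 6 LKO males below and all 6 LKO females above the control mean of their sex. In the fit of all 4 groups the female difference exceeded the male one by 2.71 (SE 0.69) on the log2 scale.

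Single livers weighed on the Fgf21 values. Without control male replicate 3, the highest control, the male difference was -0.29, and without control male replicate 4, the lowest, it was -1.03. Without LKO female replicate 6 the female difference was 1.15. The direction within each sex held when each liver was left out in turn. In the authors' deposited table the log2 fold change of Fgf21 was -0.80 in males and 1.91 in females.

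Tsku (ENSMUSG00000049580; chromosome 7, 97999875 to 98010535, minus strand) was higher in the LKO livers of both sexes. Control males had 98.3, 66.7, 105, 56.7 and 58.6 CPM, and LKO males 116 CPM at the lowest, 161 at the median and 235 at the highest. The 2 male groups did not overlap, and the LKO mean was 2.14-fold that of controls (log2 difference 1.09, SE 0.20). Control females were widely spread, at 23.7, 62.5, 113, 120.0, 15.9 and 20.1 CPM, whereas LKO females lay between 78.8 and 143 CPM with a median of 106. The female groups overlapped because control females 3 and 4 lay within the LKO range. The female log2 difference was 0.89 (SE 0.43), and all 6 LKO livers exceeded the control mean in either sex. With each liver left out in turn the male difference stayed between 0.97 and 1.24 and the female one between 0.70 and 1.22.

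Inhbe (ENSMUSG00000047492; chromosome 10, 127184726 to 127190280, minus strand) resembled Fgf21 in the sign of its differences. Control females had 17.5, 46.2, 35.8, 65.2, 12.6 and 15.4 CPM, and LKO females 38.9 to 92.5 CPM with a median of 57.1. All 6 LKO females lay above the control mean, and 2 above every control (log2 difference 0.90, SE 0.35). In males the values overlapped broadly, at 43.8 to 135 CPM in controls and 50.9 to 126 CPM in LKO livers (log2 difference -0.28, SE 0.29). Leaving out control male replicate 3 gave a male difference of -0.12, and leaving out replicate 4 gave -0.46. Its neighbour Inhbc, which encodes another activin subunit 1.911 kb away, had log2 differences of -0.12 (SE 0.10) in males and -0.18 (SE 0.19) in females.

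Gdf15 (ENSMUSG00000038508; chromosome 8, 71082043 to 71085106, minus strand) was at 297, 243, 337, 413 and 237 CPM in control males and at 131 to 384 CPM, median 193, in LKO males. Of the LKO males, 4 lay below every control and 1, replicate 1, lay above the control mean (log2 difference -0.48, SE 0.25). Without that liver the difference was -0.72. In females the groups overlapped over most of their range, at 237 to 416 CPM in controls and 299 to 544 CPM in LKO livers (log2 difference 0.22, SE 0.15). Without LKO female replicate 6, the liver with the highest Gdf15 and the highest Fgf21, it was 0.10.

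Selenop (ENSMUSG00000064373; chromosome 15, 3298029 to 3309990, plus strand) varied least between livers and was slightly higher in the LKO livers of both sexes. It was at 2949 ± 308 CPM in control males (SD, n = 5) and 3526 ± 296 CPM in LKO males (SD, n = 6). Control females averaged 3869 ± 506 CPM (SD, n = 6) and LKO females 4489 ± 333 CPM (SD, n = 6). All 6 LKO livers exceeded the control mean in each sex, with log2 differences of 0.26 (SE 0.10) in males and 0.21 (SE 0.10) in females, while the groups overlapped. The gene overlaps Ccdc152 by 438 bases in the deposited coordinates, and the counting was not stated to use strand, so reads of the shared bases cannot be assigned with certainty.

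The binding proteins and plasma proteins had LKO differences below 0 in both sexes. Igfbp1 (chromosome 11, 7147782 to 7152546) differed by -0.24 (SE 0.36) in males and -0.27 (SE 0.28) in females. Igfbp2 (chromosome 1, 72863662 to 72891633) differed by -0.49 (SE 0.28) and -0.12 (SE 0.19). Ahsg and Fetub, 18.885 kb apart on chromosome 16, differed by -0.38 (SE 0.20) and -0.47 (SE 0.25) in males and by -0.19 (SE 0.14) and -0.085 (SE 0.12) in females. Lect2 (chromosome 13, 56690277 to 56696315) differed by -0.19 (SE 0.11) and -0.14 (SE 0.11), and all 6 LKO males lay below the control mean. Every one of these 5 genes overlapped between the groups in both sexes.

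Several of these values rested on 1 liver. Control male replicate 4 had 1318 CPM of Igfbp1, against 355 to 638 CPM in the other control males, and without it the Igfbp1 difference changed sign to 0.23; without LKO male replicate 1 it was -0.53. Without control male replicate 4 the Igfbp2 difference was -0.24 and that of Ahsg -0.17. For Fetub, control male replicate 6 stood highest at 954 CPM, and the difference without it was -0.17; the Lect2 difference without the same liver was -0.12. In females Igfbp1 gave -0.14 without LKO female replicate 3 and -0.50 without LKO female replicate 5. Female Igfbp2 gave -0.014 without LKO female replicate 6 and -0.22 without LKO female replicate 3. Female Fetub gave -0.039 without control female replicate 5 and -0.16 without LKO female replicate 1, and female Lect2 -0.081 without control female replicate 6.

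**Figure D1:**
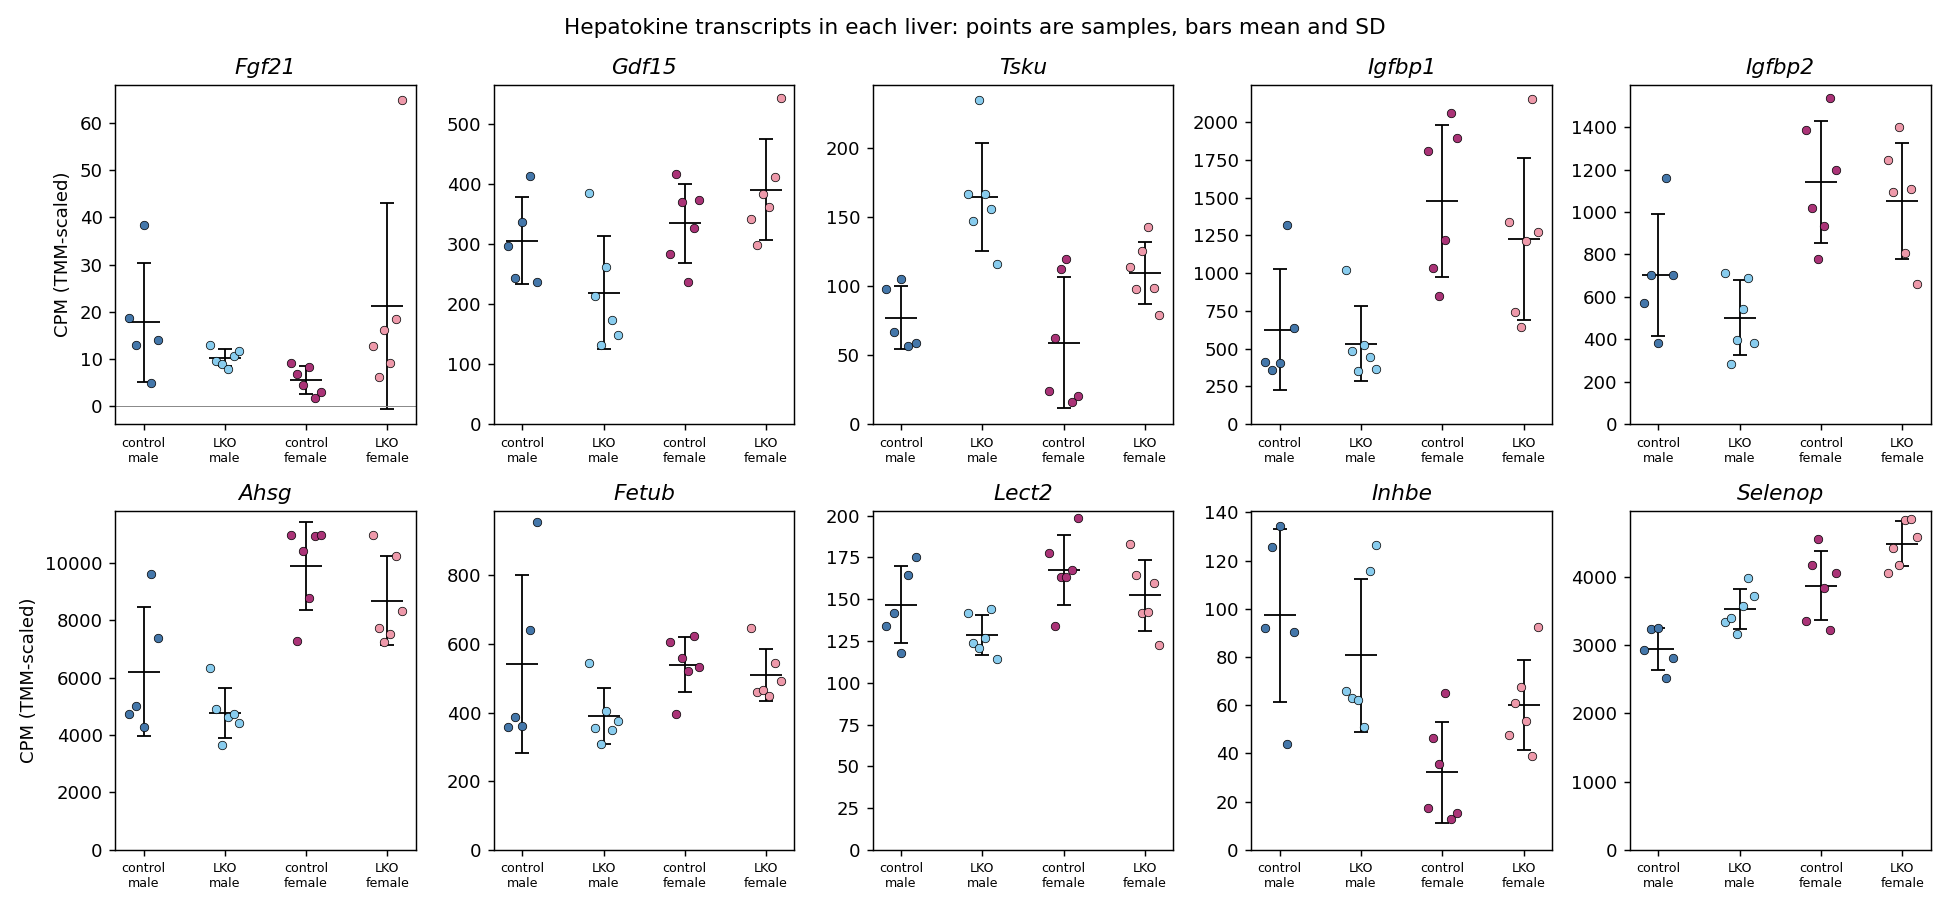
CPM of the 10 hepatokine transcripts in each liver (vertical axes, TMM-scaled) by group (horizontal axis); points are livers and bars give the mean and SD. Tsku in males separates the groups, from 105 CPM at most in controls to 116 CPM at least in LKO livers, and 1 LKO female stands at 64.7 CPM of Fgf21.

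Over all genes, few passed the edgeR quasi-likelihood test at a Benjamini-Hochberg adjusted p under 0.05. In males 1 of 13805 genes was called, Cpt1a itself (0.00724%), and in females 194 of 13684 (1.42%). None of the 10 members was among them in either sex, while 1719 genes in males and 2140 in females had an unadjusted p under 0.05. DESeq2 called 107 of 7374 genes in males (1.45%), Tsku among them, and 554 of 15235 in females (3.64%), Fgf21 among them. For the difference of the LKO effect between the sexes edgeR called 0 of 14503 genes (0%) although 1874 had an unadjusted p under 0.05. DESeq2 called 72 of 13538 (0.532%), no member among them. LKO and control values did not overlap for 1.77% of the genes tested in males, Tsku being the only such member, and for 1.59% in females, with no member. Since these contrasts chose the members, nothing is read from the members' counts. In males 8 members were lower and 2 higher (median log2 difference -0.33, against 0.010 over all genes), and in females 5 were lower and 5 higher (median 0.064, against 0.0051). Of all genes tested, 52.1% were higher in LKO livers in males and 51.1% in females.

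**Figure D2:**
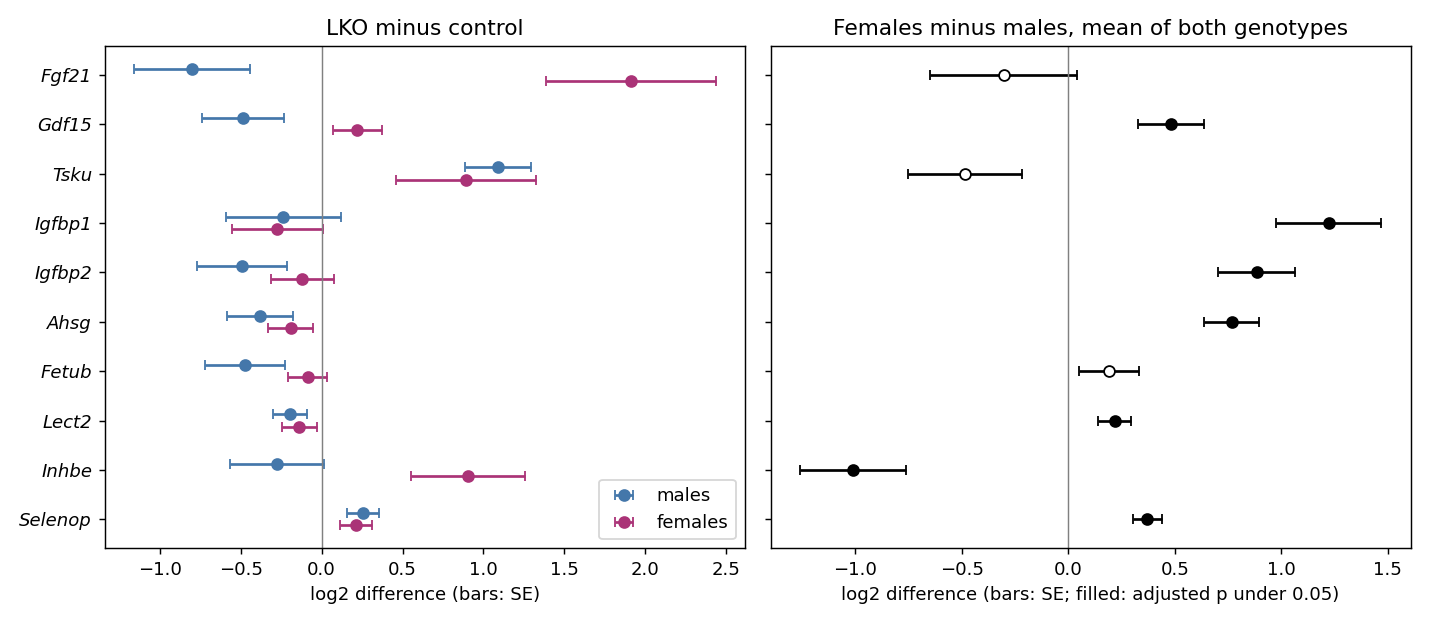
Log2 differences of the 10 hepatokine transcripts with their SE: LKO minus control within each sex on the left, and females minus males, as the mean of both genotypes, on the right. Fgf21 lies at -0.80 in males and 1.91 in females; filled points on the right mark the 7 genes with an adjusted p under 0.05.

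Most of the hepatokine transcripts differed between females and males. Averaged over both genotypes, 6 members were higher in females (Igfbp1, Igfbp2, Ahsg, Selenop, Gdf15 and Lect2) and Inhbe was lower. That is 7 of 10 members, where edgeR called 29.2% of the 14503 genes tested (2133 higher and 2096 lower in females). All female libraries were deposited in 1 table and all male libraries in another, so a difference between tables and a difference between sexes cannot be told apart.

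Igfbp1 had the largest female excess, with a mean of 1352 CPM over 12 females and 579 CPM over 11 males. All 12 females lay above the male mean (log2 difference 1.22, SE 0.25, edgeR quasi-likelihood adjusted p = 0.000638), although the male maximum of 1318 CPM overlapped the female range. Igfbp2 averaged 1098 CPM in females and 603 CPM in males, again with 12 of 12 females above the male mean (log2 difference 0.88, SE 0.18, edgeR adjusted p = 0.000691). Ahsg averaged 9295 CPM in females and 5496 CPM in males, with 12 of 12 females above the male mean (log2 difference 0.77, SE 0.13, edgeR adjusted p = 8.12e-05). These 3 genes thus rose together in females, and each kept its call when any 1 of the 23 livers was left out. Between the controls alone Igfbp2 gave 0.70 and was not called (edgeR adjusted p = 0.0659). The summed hepatocyte markers also differed, with medians of 65938 and 55557 CPM in control and LKO males and 86898 and 76043 CPM in control and LKO females; their part in the result was not tested.

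Selenop was higher in females by 0.37 on the log2 scale (SE 0.068, edgeR adjusted p = 0.000234), with 11 of 12 females above the male mean. Gdf15 was higher by 0.48 (SE 0.15, edgeR adjusted p = 0.0209, 11 of 12 females). Between the controls alone, however, the Gdf15 difference was 0.13 (edgeR adjusted p = 0.636), and the call was lost. Lect2 was higher by 0.22 (SE 0.077, edgeR adjusted p = 0.0361, 10 of 12 females), and its call held in only 7 of the 23 fits that left out 1 liver and not between the controls alone (0.19, edgeR adjusted p = 0.285). Inhbe was the called member with lower levels in females, at a mean of 46.1 CPM against 88.9 CPM in males (log2 difference -1.01, SE 0.25, edgeR adjusted p = 0.00371, 11 of 12 females below the male mean). Its call held in all 23 such fits.

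The other 3 members did not pass. Fgf21 averaged 13.5 CPM in females and 14 CPM in males (log2 difference -0.30, SE 0.35, edgeR adjusted p = 0.551). Between the controls alone the Fgf21 difference was -1.66, given without a p because those values entered the choice of the genes. Tsku gave -0.49 (SE 0.27, edgeR adjusted p = 0.180) and Fetub 0.19 (SE 0.14, edgeR adjusted p = 0.339). Fetub therefore stood apart from its neighbour Ahsg in whether the threshold was passed, and the difference between the 2 genes was not tested. Without control male replicate 6 Fetub was called, at 0.34 (edgeR adjusted p = 0.0331).

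Livers of the same group differed widely in some hepatokines. The pooled SD of log2 CPM within groups was 0.90 for Fgf21, 0.73 for Tsku, 0.67 for Inhbe and 0.62 for Igfbp1, against a median of 0.20 over 10612 genes. Selenop (0.15) and Lect2 (0.19) were the only members below that median. Whether the variable members moved together was examined by subtracting the group mean from each liver's log2 CPM and correlating the deviations of 45 pairs over the 23 livers. The permutation test shuffled livers within groups 100000 times, with Benjamini-Hochberg adjustment over the 45 pairs.

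The plasma proteins formed the set with the strongest correlations. Ahsg and Igfbp1 had Pearson's r = 0.82 and Spearman's rho = 0.77 (permutation p = 6e-05 for r and 0.00014 for rho, adjusted 0.00270 and 0.00210), and Ahsg and Fetub r = 0.85 and rho = 0.91 (permutation p = 0.00026 and 2e-05, adjusted 0.00420 and 0.000900). Ahsg and Lect2 gave r = 0.75 and rho = 0.81 (permutation p = 0.00028 and 0.00011, adjusted 0.00420 and 0.00210). Fetub and Lect2 (r = 0.69, rho = 0.71), Igfbp2 and Lect2 (r = 0.66, rho = 0.65) and Igfbp1 and Fetub (r = 0.63, rho = 0.69) also passed, with adjusted permutation p for r of 0.00776, 0.0111 and 0.0271. With library size alone in place of TMM factors, Ahsg with Lect2 fell to r = 0.48, Fetub with Lect2 to 0.46, Igfbp2 with Lect2 to 0.49 and Igfbp1 with Fetub to 0.53, and these 4 pairs no longer passed (adjusted permutation p = 0.0561 for each).

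Inhbe had negative r with these genes and positive r with Fgf21, Tsku and Selenop, but not every pair passed. Its r with Fetub, Lect2 and Igfbp2 did not (adjusted permutation p = 0.103, 0.0549 and 0.0549). By rho, Fetub and Lect2 passed (adjusted 0.0383 each) and Igfbp2 did not (0.0577). Inhbe correlated negatively with Igfbp1 (r = -0.65, rho = -0.64, permutation p = 0.00137 and 0.00280, adjusted 0.0111 and 0.0180) and with Ahsg (r = -0.59, rho = -0.58, permutation p = 0.00314 and 0.00465, adjusted 0.0202 and 0.0262). With Fgf21 it correlated positively (r = 0.59, rho = 0.57, permutation p = 0.00542 and 0.0131, adjusted 0.0271 and 0.0452). That relation was r = 0.71 in the 11 males and 0.54 in the 12 females, and 0.45 without the 2 livers farthest from the median of Fgf21. Tsku and Inhbe had r = 0.61, which did not pass (adjusted permutation p = 0.0959), with r = 0.80 in females and 0.047 in males. Tsku deviations ran from -1.44 to 1.47 in control females and from -0.45 to 0.41 in LKO females. The LKO female lowest in Tsku, replicate 6, was the highest of its group in Inhbe (0.67). Selenop and Inhbe had r = 0.59, which did not pass (adjusted permutation p = 0.0549), and rho = 0.60, which did (0.0416). Their r was 0.86 in males and 0.42 in females.

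In all, 9 of the 45 pairs passed by r, 7 positive and 2 negative, and 14 by rho. All 9 had the same sign in males and in females. They kept it without the 2 livers farthest from the median of the pair's first gene, in the opening order of the members. The lowest absolute r was then 0.45. Livers extreme only in the second gene stayed in. Within 1 sex, 1 pair passed in males (Igfbp1 and Ahsg, r = 0.93) and 1 in females (Ahsg and Fetub, r = 0.92). The count rose to 18 without LKO female replicate 3, to 16 without LKO male replicate 2 and to 15 without LKO male replicate 5. The deviations also followed the TMM scaling factor of the library, with r = -0.95 for Ahsg, -0.81 for Fetub, -0.76 for Lect2, -0.74 for Igfbp1, -0.66 for Igfbp2 and 0.51 for Inhbe; the part of this in the correlations was not tested. With library size alone in place of the factor, Ahsg with Igfbp1 (r = 0.78), Ahsg with Fetub (r = 0.77) and the 3 pairs of Inhbe (r = -0.68, -0.67 and 0.63) still passed. Some pairs of Selenop that were not called by r moved farther from 0 under that scaling. Ahsg with Selenop went from r = -0.42 to -0.70, Fetub with Selenop from -0.44 to -0.62 and Inhbe with Selenop from 0.59 to 0.70.

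**Figure D3:**
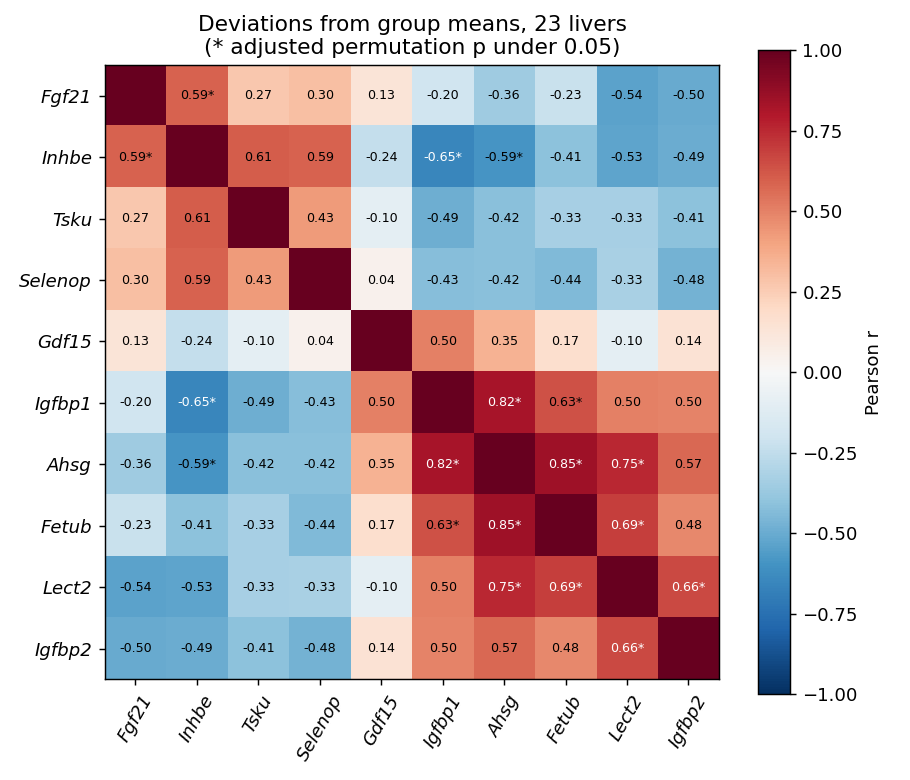
Pearson's r between the within-group deviations of log2 CPM of each pair of hepatokine transcripts over 23 livers, from -1 (blue) to 1 (red); asterisks mark the 9 pairs with an adjusted permutation p under 0.05. Ahsg, Fetub, Igfbp1, Lect2 and Igfbp2 form a block of positive values, and Inhbe is negative with all 5.

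The genes whose within-group deviations were most like those of Fgf21, Gdf15 and Tsku were ranked by Pearson's r among 10611 genes, as a description over the 23 livers. For Gdf15 they were Atf3 (r = 0.85), Trib1 (0.84), Actg1 (0.83), Junb (0.82) and Egr1 (0.82). Atf3, Junb and Egr1 encode transcription factors of the immediate early or stress response, and each of the 5 had r between 0.78 and 0.87 in either sex. For Fgf21 they were Zfand2a (0.80), Bcl9 (0.79), Igsf11 (0.72), Homez (0.72) and Exoc4 (0.71), of which Igsf11 dropped to 0.37 and Exoc4 to 0.42 without the 2 farthest livers. For Tsku they were Slc6a9 (0.85), Srm (0.81), Osbpl2 (0.80), Lpgat1 (0.79) and Mief2 (0.79). Without the 2 farthest livers these dropped to 0.61, 0.59, 0.65, 0.58 and 0.43. For Lpgat1 and Mief2 r was 0.92 and 0.93 in females, and 0.017 and -0.056 in males.

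**Figure D4:**
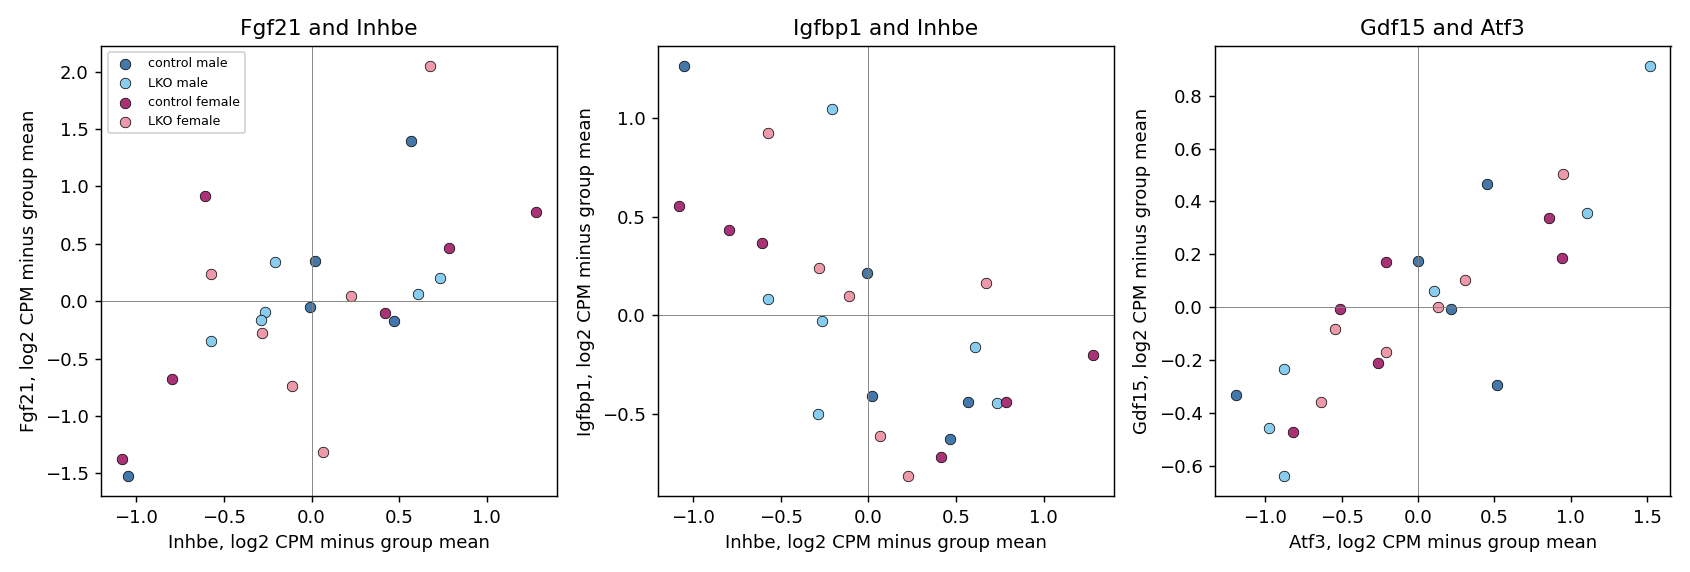
Deviations of log2 CPM from the group mean in each of 23 livers, coloured by group, for Fgf21 against Inhbe (r = 0.59), Igfbp1 against Inhbe (r = -0.65) and Gdf15 against Atf3 (r = 0.85). Livers of all 4 groups lie along the slope in the Gdf15 panel.

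Other genes of the hepatokine pathways were followed in 8 lists. In males edgeR called no listed gene, where it called 1 of 13805 genes in all (0.00724%). In females it called 3 listed genes, where it called 1.42% of the 13684 genes tested. Of the FGF receptor pathway, 11 of 12 listed genes were tested, and Fgfr4, the main FGF receptor of hepatocytes, fell in LKO females from 51.3 ± 5.72 to 37.8 ± 5.08 CPM (SD, n = 6 each, log2 difference -0.44, SE 0.098, edgeR adjusted p = 0.0395). The groups of Fgfr4 overlapped slightly, from 44.0 CPM at the lowest in controls to 45.0 CPM at the highest in LKO livers. Its call was lost in 7 of the 12 fits without 1 liver, namely those without control females 1, 2 and 5 and LKO females 1, 2, 3 and 4, and also with library size alone and in the fit of all 4 groups. The highest adjusted p over all these settings of the edgeR test was 0.0988. Klb, which encodes beta-klotho, gave -0.42 (SE 0.13, edgeR adjusted p = 0.121) in females and 0.00099 (SE 0.18) in males. The median log2 difference of the list was -0.011 in males and -0.10 in females.

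Of 22 selenoprotein and selenocysteine genes tested, Gpx4, a glutathione peroxidase that reduces lipid peroxides, rose in LKO females from 303 ± 33.2 to 425 ± 37.5 CPM (SD, n = 6 each, log2 difference 0.49, SE 0.091, edgeR adjusted p = 0.0156). The groups did not overlap, which was so for 1.59% of the genes tested in females. The call held in all 12 fits without 1 liver but not in the fit of all 4 groups (edgeR adjusted p = 0.119). Of 5 cystatin superfamily genes, Cstb, an intracellular inhibitor of cathepsins, rose in LKO females from 38.8 ± 3.54 to 51.8 ± 5.39 CPM (SD, n = 6 each, log2 difference 0.41, SE 0.086, edgeR adjusted p = 0.0312). Its groups did not overlap either, but the call was lost without control female 5 or LKO female 2, 3 or 4. It was also lost in the fit of all 4 groups (edgeR adjusted p = 0.177). The median log2 differences in males and females were -0.033 and 0.016 for the selenoprotein list and -0.17 and 0.026 for the cystatin list.

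No gene was called in the other 5 lists in either sex. Of 16 transcription factors known to act on Fgf21, Gdf15 or Igfbp1, Atf4 differed by -0.31 in LKO males (SE 0.092, edgeR adjusted p = 0.274) and by -0.15 in LKO females (SE 0.11). Ppara, the fatty acid sensor that drives Fgf21 in fasting, gave 0.12 (SE 0.16) in males and 0.025 (SE 0.14) in females. Creb3l3 differed by -0.052 in LKO males (SE 0.094) and by 0.24 in LKO females (SE 0.094, edgeR adjusted p = 0.223). Mlxipl, which encodes the carbohydrate-responsive factor ChREBP, differed by 0.056 in males (SE 0.18) and by -0.35 in females (SE 0.096, edgeR adjusted p = 0.0905). Nr1d1, the gene of the circadian repressor REV-ERB alpha, gave -0.54 in males (SE 0.24, edgeR adjusted p = 0.374) and -0.90 in females (SE 0.34, edgeR adjusted p = 0.216). Igf1 of the IGF axis gave -0.071 (SE 0.15) in males and 0.14 (SE 0.12) in females. Of the 21 other secreted regulators tested, Fgl1 gave -0.74 in males (SE 0.24, edgeR adjusted p = 0.280). The medians in males and females were -0.026 and -0.12 for the transcription factors, -0.056 and 0.072 for the IGF axis, 0.022 and -0.21 for the activin pathway, 0.071 and 0.34 for the small leucine-rich repeat proteins and -0.11 and -0.087 for the other secreted regulators.

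The same lists were followed in the edgeR comparison of the sexes, which called 29.2% of all genes, and no list was tested as a whole. Calls were made for 7 of 13 genes of the IGF axis, 5 higher in females and 2 lower (Igf2r and Igfbp7). Igf1 was among those higher in females (log2 difference 0.45, SE 0.098, edgeR adjusted p = 0.00119). So was Igfals, the acid-labile subunit that holds IGF1 in plasma (0.84, SE 0.16, edgeR adjusted p = 0.000320). In the FGF receptor pathway 6 of 11 genes were called, 4 higher in females and 2 lower (Fgfr1 and Dusp4). Klb was among the higher (0.75, SE 0.12, edgeR adjusted p = 3.12e-05). Of the cystatin superfamily 4 of 5 were called, with Kng1, Kng2 and Hrg higher in females and Cstb lower. Calls numbered 8 of 22 selenoprotein genes, 4 of 16 transcription factors, 2 of 11 activin pathway genes, 2 of 9 small leucine-rich repeat genes and 9 of 21 other secreted regulators. Among the last, Fgl1, a fibrinogen-like protein secreted by hepatocytes, was higher in females by 1.89 (SE 0.21, edgeR adjusted p = 3.82e-07).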

How the data were processed

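RNA of 23 livers was measured as read counts per gene. The authors deposited 1 table per sex (24434 genes in males, 24940 in females, 22852 in both) with raw counts, FPKM, a normalized count signal (the count over 1 size factor per sample, from the values), and their own log2 fold changes and p-values, whose tool is not given in the sources used here. HISAT2 2.0.5 and mm39 are named in the submitters' processing notes; the counter, annotation and strand setting are not given in the sources used here. Libraries were made with random primers and dUTP, per the labels' protocols.

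Deposited counts were tested with edgeR 4.0.16 in R 4.3.3 (filterByExpr, TMM factors of 0.875 to 1.10, quasi-likelihood test, Benjamini-Hochberg adjustment, calls at adjusted p under 0.05). LKO was set against control within each sex; the 22852 shared genes were fitted with 4 group means for the sexes and for the difference of LKO effects. The SE of a log2 difference was its absolute value divided by the square root of the quasi-likelihood F statistic. A difference over its SE thus restates that statistic. All 10 members passed the filter in every fit. Correlations used log2 CPM with a prior count of 2. Samples were grouped by the labelled sex and genotype. The scripts were tested on simulated data.

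The members and lists were chosen with earlier results of these data known. Named genes are the members, up to 3 genes per list and sex with the lowest p, the 5 most alike genes (mean of at least 50 counts) for Fgf21, Gdf15 and Tsku, Klb, Igf1, Ppara, Atf4, Creb3l3 and Cpt1a. Inhbc falls under this rule, while Hrg was named after its values were seen. Fgfr1 and Igfbp7 also fall outside it and were named for their calls between the sexes. Alternatives were RLE factors, library size alone, other filters, DESeq2 1.42.0, limma 3.58.1 on log2 FPKM with a pseudocount of 1 or 0.1, 1 fit of 4 groups, controls alone, a replicate block and leaving out each liver. Library size alone for the correlations was added after seeing the data. Coordinates are those of the tables; promoters are RefSeq's on GRCm38.p6 and were not converted.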

Additional observations from a re-analysis of the deposited data

Results flagged for a closer look

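Of 40 sets of values, 1 per member and group, 2 held a liver far from the others; by chance about 1 in 20 would. Fgf21 stood at 64.7 CPM in LKO female replicate 6, against 6.22 to 18.4 CPM in the other LKO females (gap over range 0.791, critical value 0.625). Igfbp1 stood at 1022 CPM in LKO male replicate 1, against 350.4 to 525 CPM in the other LKO males (0.741). Fgf21 also differed in direction: every LKO male lay below and every LKO female above its control mean, and the female difference exceeded the male one by 2.71 on the log2 scale. The edgeR fit called no gene for this difference, Fgf21 included; as the pattern had chosen the genes, an independent test of it was not made.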

How the results depend on the processing

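In males 1 gene was called, and 2 with library size alone, 2 without a filter, 3 with at least 10 counts in every sample, 5 in the fit of 4 groups, 107 by DESeq2, and 1 to 2 with each liver left out. In females the count of 194 became 554 by DESeq2, 94 in the fit of 4 groups, and 87 to 233 with each liver left out; it was 116, 87 and 111 without control females 1, 5 and 6 and 88, 96 and 104 without LKO females 2, 3 and 4. The sex comparison called 4229 genes, 2466 between controls alone and 3843 to 4471 with each liver left out. The difference of LKO effects called 0 genes, 72 by DESeq2 and 0 to 17 with each liver left out, the 17 without control male replicate 4. Of pairs, 9 were called, 1 in males alone, 1 in females alone and 6 to 18 with each liver left out. The cause of these shifts was not tested.

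A replicate block gave 2 calls in males, 334 in females, 3887 between sexes and 0 for the difference of LKO effects. Same-numbered livers had deviations correlated at -0.42 to 0.44 in males and -0.013 to 0.19 in females. The best match carried the same number for 1 of 5 numbers in males and for 4 of 6 in females. Whether the numbers mark pairs was not tested, and the main fits did not use them.

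Between controls alone the sex difference was not called for Gdf15, Igfbp2 (0.70, edgeR adjusted p = 0.0659) and Lect2 (0.19, edgeR adjusted p = 0.285), and Fetub changed sign without a call (-0.0043). limma on FPKM was not run between the sexes because FPKM was scaled within each table.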
